A study of Mus musculus with 203 samples.

Results

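The collagen genes were examined in bulk RNA-seq of mouse airways and parenchyma, across every exposure of a house dust mite (HDM) model of experimental asthma. Members were all genes whose symbol is Col, digits, the letter a, digits and nothing more. The rule found 44 genes among the 43346 gene identifiers of the count table, and expression was not used to choose them. By the structure of the protein they fell into 9 classes. There were 11 fibrillar chains, 9 fibril-associated (FACIT) chains, 6 type IV chains, 6 type VI chains and 4 transmembrane chains. The remaining members were 3 short-chain network chains (types VIII and X), the 2 multiplexins (types XV and XVIII), 2 chains of types XXVI and XXVIII, and type VII, a class of 1.

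Libraries came from female Balb/C mice labelled as 18 to 20 weeks old, all wild-type per the study's methods, and formed 20 groups, 4 with 43 libraries at 3 weeks and 16 with 10 libraries each at 11 weeks. At 3 weeks, mice received HDM extract or phosphate-buffered saline (PBS) intranasally 5 days per week, and each tissue gave 10 libraries of HDM mice, beside 11 of PBS mice in airways and 12 in parenchyma. At 11 weeks, 8 exposures were profiled in each tissue. After the first 3 weeks these mice received HDM 3 times per week over weeks 4 to 11, or PBS, and either cigarette smoke (CS) 2 times per day on 5 days per week for 8 weeks or normal air (AIR). Separate groups of each of these 4 exposures were also given dexamethasone (DEX), a glucocorticoid, during week 11. The groups are named as labelled, for example HDM.CS.DEX. Airways and parenchyma were separated by blunt dissection. Marker genes of both alveolar type I cells and airway epithelium were read in both tissues. The 7 alveolar type I markers summed to 1187 to 4677 CPM in PBS airways and 5021 to 6804 CPM in PBS parenchyma at 3 weeks. The labels do not tie an airway library to a parenchyma library of the same mouse, so the tissues were compared as independent samples.

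Collagens are proteins of 3 polypeptide chains wound into a triple helix, and each gene encodes 1 chain. Fibrillar collagens (types I, III and V, with II and XI in cartilage) form the tensile fibrils of airway walls and alveolar septa, FACITs decorate those fibrils, and type IV chains form the sheet-like network of basement membranes. Type VI makes beaded filaments around cells, type VII anchors epithelium, multiplexins link basement membranes to the matrix beneath, and transmembrane collagens sit in the cell surface. Deposition of collagen around the airways is a hallmark of airway remodelling in asthma. These libraries measured mRNA and not protein.

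Libraries held 13003154 to 40240733 estimated counts, with a median of 28090684, and collagen genes took 0.115 to 0.480% of them. Levels are given as TMM-normalised CPM (counts scaled to the size of the library), as the lowest, median and highest library of a group. Several libraries stood apart from their groups. In HDM.AIR.DEX parenchyma, library X32 had 13003154 counts, 34.2% of them in 6 small or ribosomal RNA genes. In HDM.AIR parenchyma, skeletal muscle markers summed to 2762 CPM in X70 and to at most 1.195 CPM in the others. The 3-week HDM airway library X63 had a median correlation of 0.948 with its group across genes, against 0.972 or more for the others. The collagen share of counts was 0.480% in HDM.CS.DEX parenchyma library X160 and 0.115% in PBS.CS parenchyma library X173, outside the 0.233 to 0.333% and 0.219 to 0.304% of their groups. Named calls that were lost without these libraries are marked where they appear.

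The single collagen genes with the highest mean levels were Col4a1 and Col4a2, chains of the type IV network. Per kilobase of exon, the mean level over all libraries was highest for Col4a1 at 58.1 CPM per kb, followed by Col4a2 at 46.5, Col6a1 at 37.4 and Col3a1 at 36.01. Col4a3, Col1a2, Col1a1 and Col6a2 followed at 16.5, 16.2, 14.7 and 11.97 CPM per kb. This order depended on which length was used. With coding length in place of exon length Col3a1 moved to rank 2, Col4a2 to rank 3 and Col1a2 to rank 5. The 5 genes with the highest CPM, Col4a1, Col3a1, Col4a2, Col1a2 and Col4a3, held 57.7% of all collagen CPM. In all, 35 members averaged at least 1 CPM, 8 of them at least 100 CPM, and 9 averaged less.

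The other classes were read at lower levels. Within each class the members with the highest level per kilobase were Col14a1 (4.88 CPM per kb) and Col16a1 (3.20) among FACITs, Col23a1 (9.80) and Col13a1 (8.04) among transmembrane chains, and Col18a1 (4.42) and Col15a1 (2.25) as multiplexins. Col8a2 (3.62) and Col8a1 (1.61) led the short-chain network chains, and Col7a1, the anchoring fibril collagen, stood at 0.644 CPM per kb. Col28a1 and Col26a1 were at 0.258 and 0.0426 CPM per kb. Some counts could be shared with an overlapping gene. For genes on opposite strands this depends on the strand setting of the counting, which was not given in the sources used here. BX649560.1 lies on the same strand as Col20a1, so the setting does not matter for that pair, and they held 28223 and 33669 counts. Exonic overlap was 563 bases for Col4a3 with C430014B12Rik, 234 for Col9a3 with Tcfl5, 79 for Col20a1 with BX649560.1 and 18 for Col10a1 with Nt5dc1.

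Across the 20 groups these class leaders spanned different ranges. Col6a1 was lowest in 3-week PBS parenchyma at 67.9, 92.9 and 116.9 CPM and highest in PBS.CS.DEX parenchyma at 179.4, 248 and 339 CPM. Col14a1, a FACIT of tendon-like matrix, was lowest in 3-week HDM parenchyma at 4.21, 8.13 and 14.9 CPM and highest in 3-week PBS airways at 53.6, 83.8 and 193.2 CPM. Both pairs of ranges stood clear of each other, and Col14a1 had the wider span. Col23a1 was lowest in 3-week HDM airways at 20.1, 29.99 and 40.05 CPM and highest in PBS.CS.DEX parenchyma at 49.3, 71.2 and 104.03 CPM. Col13a1 was lowest in the same airways at 4.15, 10.6 and 12.7 CPM and highest in PBS.AIR.DEX parenchyma at 40.9, 64.6 and 92.03 CPM. Col8a2 went from 4.85, 5.79 and 9.90 CPM in 3-week HDM parenchyma to 21.1, 28.9 and 34.6 CPM in PBS.AIR airways. By group median Col13a1 was thus highest in parenchyma and Col8a2 in airways, while Col23a1 had a median of 71.2 CPM in PBS.CS airways too. Group medians ran from 12.3 to 27.4 CPM for Col16a1, from 18.3 to 39.9 CPM for Col18a1 and from 43.9 to 130.4 CPM for Col6a2. They ran from 4.98 to 9.40 CPM for Col7a1, from 0.454 to 2.53 CPM for Col28a1 and from 0.141 to 0.606 CPM for Col26a1.

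The 6 type IV genes sit as 3 head-to-head pairs, each pair transcribed in opposite directions from neighbouring starts, and the short stretches at the shared starts are shown because the chains of 2 of the pairs also moved together. Starts are those of the M21 gene models on mm10, and the bases at those positions were read from RefSeq promoter sequences on GRCm38.p6, the same assembly, on the + strand, in lower case with nothing marked. For Col4a1 (- strand) and Col4a2 (+ strand) the annotated first exons overlap by 22 bases at chr8:11312805-11312826, and for Col4a4 (- strand) and Col4a3 (+ strand) the starts are 71 bases apart at chr1:82586850-82586920.
Col4a1 and Col4a2: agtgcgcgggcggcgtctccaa
Col4a4 and Col4a3: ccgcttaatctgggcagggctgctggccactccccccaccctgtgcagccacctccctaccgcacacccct
Both stretches were rich in G and C, at 72.7% and 69.01%. The starts of Col4a6 and Col4a5 on chromosome X lie 1308 bases apart.

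The levels of the first pairs tracked each other from library to library. Across libraries the log2 CPM of Col4a1 and Col4a2 correlated at Pearson's r 0.98 in airways (n = 101 libraries) and 0.96 in parenchyma, which had 1 library more, and that of Col4a3 and Col4a4 at 0.98 and 0.91. Such tracking was not limited to genes with a shared start. Col4a1 and Col4a3, on different chromosomes, had an r of 0.80 and 0.66, and Col1a1 and Col1a2 had 0.86 and 0.80. For Col4a5 and Col4a6 r was 0.69 and 0.78, and 0.21 and 0.34 once each group's mean was removed. Col4a6 averaged 1.34 CPM. The Col1a1 and Col24a1 levels, both fibrillar, had an r of 0.39 in airways and 0.66 in parenchyma across libraries, against 0.85 and 0.79 for Col1a1 and Col3a1. Within groups r was 0.14 and -0.01 for Col1a1 and Col24a1, against 0.90 and 0.83 for Col1a1 and Col3a1. These are descriptions, since libraries share a depth, a normalisation and the groups' exposures, and the 22 bases that Col4a1 and Col4a2 share could place a read with either gene.

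The 250 bases upstream of the start are shown for Col24a1, the collagen with the largest rise after HDM exposure in every tissue and time, and for Col3a1, the most abundant fibrillar collagen in CPM. Both are on the + strand, from RefSeq on GRCm38.p6, at chr3:145292222-145292471 and chr1:45311288-45311537. Capitals mark GAGGAAG, the core recognised by PU.1 (SPI1), in Col24a1, and in Col3a1 a match to TATAAA, the letters of the TATA box.
Col24a1: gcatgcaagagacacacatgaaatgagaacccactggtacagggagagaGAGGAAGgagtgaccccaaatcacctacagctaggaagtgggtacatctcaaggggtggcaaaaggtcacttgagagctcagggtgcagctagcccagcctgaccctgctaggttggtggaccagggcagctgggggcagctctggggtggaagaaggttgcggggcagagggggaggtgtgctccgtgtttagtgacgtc
Col3a1: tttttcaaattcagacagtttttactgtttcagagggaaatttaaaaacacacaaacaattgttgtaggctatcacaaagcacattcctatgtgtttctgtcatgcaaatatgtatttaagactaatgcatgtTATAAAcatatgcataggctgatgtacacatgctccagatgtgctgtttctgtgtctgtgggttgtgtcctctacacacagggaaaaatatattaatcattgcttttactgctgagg
The Col24a1 stretch was 58% G or C and its GAGGAAG begins at position -201 from the start, whereas the Col3a1 stretch was 35.2% G or C and its TATAAA begins at -117. GAGGAAG was looked for because the study examined SPI1. On either strand of the 250 bases before the start it was present in 6 of the 38 collagen promoters, which cover 35 of the 44 genes, and in 10.6% of all 32851 promoters. The genes with it were Col24a1, Col5a1, Col6a1, Col6a3, Col9a1 and Col9a2. Their HDM effects differed, since in parenchyma at 3 weeks Col6a1 rose and Col6a3 fell, and Col5a1 passed in no HDM comparison in air. TATAAA was in 5 of 38 against 12.4% of all, CCAAT in 13 of 38 against 33.8%, and the GC box GGGCGG in 22 of 38 against 32.7%. TGANTCA, the AP-1 site, was in 1 of 38 against 6.75%, and the STAT6 site, TTC and GAA with 4 bases between, was in 0 of 38 against 5.85%. A match is a run of letters and not a shown binding site.

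In PBS mice, fibrillar collagen mRNA was higher in the airways and type IV mRNA higher in the parenchyma. At 3 weeks, 25 of 41 tested collagen genes differed between tissues (18 higher and 7 lower in airways), against 56.1% of all tested genes (24.3% higher and 31.7% lower). At 11 weeks in air 28 of 43 differed (19 and 9), against 56.4% (26.3% and 30.1%). The threshold for a call was an adjusted p below 0.05 in limma-voom, with Benjamini-Hochberg adjustment over all tested genes, and all p-values below come from those fits unless another test is named. Among fibrillar chains 6 of 11 were higher in airways and 0 lower at either time. Col1a1 had 52.9, 100.3 and 255 CPM in PBS airways and 23.2, 33.2 and 44.2 CPM in PBS parenchyma at 3 weeks (log2FC 1.46, SE 0.22, adjusted p = 4.12e-07). Every airway library was above every parenchyma library. The alveolar type IV chains went the other way, with Col4a3 at 30.8, 110.9 and 158.9 CPM in PBS.AIR airways and 178.98, 252 and 278 CPM in PBS.AIR parenchyma at 11 weeks (log2FC -1.47, SE 0.19, adjusted p = 2.85e-11), and those ranges did not overlap. Col4a4, its partner chain, differed by -1.37, and Col12a1, a FACIT, by -1.21.

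Among cartilage collagens, Col10a1, Col2a1 and Col11a1 were read almost wholly in airways. Col10a1, the collagen of hypertrophic cartilage, had at most 3 counts in every parenchyma library, while in PBS.AIR airways at 11 weeks it had 0.314, 3.42 and 36.8 CPM. Col2a1, the main cartilage fibril chain, had 0.0875, 1.24 and 7.56 CPM there, and Col11a1, its partner in cartilage fibrils, 0.188, 1.05 and 4.49 CPM. In parenchyma, all but 7 libraries held at most 3 counts of Col2a1 and all but 1 at most 3 of Col11a1, so no fold is given for them. The cartilage chains Col11a2 and Col9a3 were read in both tissues, with medians of 3.77 and 1.31 CPM in PBS.AIR airways and 2.601 and 0.756 CPM in PBS.AIR parenchyma. The spread of Col10a1, Col2a1 and Col11a1 among those PBS.AIR airway libraries was over 10-fold. The 12 cartilage markers summed to 89.05 to 183.3 CPM in the same airways and 62.4 to 107.6 CPM in PBS.AIR parenchyma, where Acan, Cnmd, Matn1, Snorc and Ucma had a median count of 0. The other 7 were read in both tissues. Of 11 such markers tested, 9 were higher in airways and 0 lower. The part of dissected cartilage in these levels was not tested.

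HDM exposure for 3 weeks raised Col24a1, Col15a1 and, in parenchyma, the type I and III chains, and lowered most FACIT, transmembrane and alveolar type IV chains. In airways 27 of 41 tested collagen genes were called (9 upregulated, 18 downregulated), against 74.6% of all genes (34.1% higher and 40.5% lower). In parenchyma 30 of 41 were called (12 upregulated, 18 downregulated), against 77.7% (33.4% and 44.3%). The share of collagen genes called was below that background in both tissues. With a log2FC of at least 1 in size required, 3 rose and 10 fell in airways, against 12.1% and 11.8% of all genes. The counts in parenchyma were 4 and 10, against 14.5% and 15.1%. The median log2FC of the tested collagen genes was -0.40 in airways and -0.60 in parenchyma, beside -0.07 and -0.13 over all genes.

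**Figure D1:**
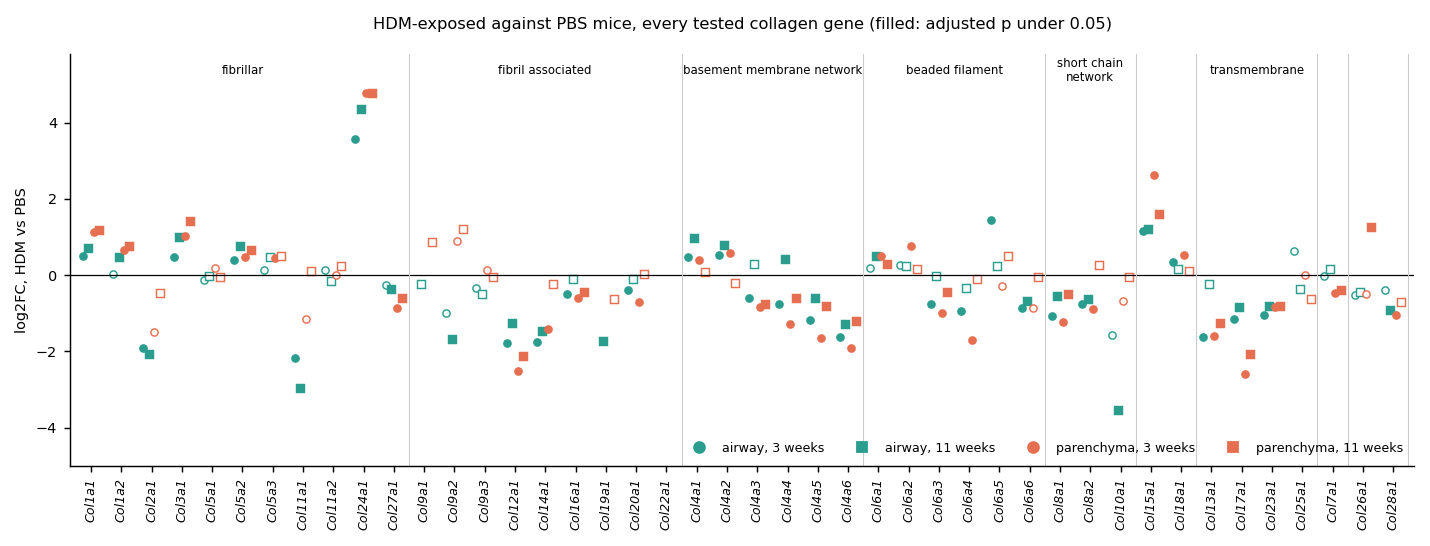
log2FC of each tested collagen gene in HDM-exposed against PBS mice (y axis), grouped by class, in airways (green) and parenchyma (orange) at 3 weeks (circles) and 11 weeks (squares). Filled symbols had an adjusted p below 0.05. Col24a1 stands above every other collagen gene in all 4 comparisons, while every filled FACIT and transmembrane symbol lies below 0.

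Col24a1 (ENSMUSG00000028197.4, chr3:145292472-145552011, + strand), a minor fibrillar collagen known from developing bone and cornea, showed the largest rise. In parenchyma it went from 0.218, 0.472 and 1.197 CPM in PBS mice to 10.4, 16.3 and 18.8 CPM in HDM mice (log2FC 4.76, SE 0.47, adjusted p = 2.90e-12). The lowest HDM library lay above the highest PBS library. In airways it went from 0.268, 0.855 and 2.41 CPM to 1.75, 11.2 and 17.5 CPM (log2FC 3.57, SE 0.40, adjusted p = 2.09e-10), with 9 of 10 HDM libraries above every PBS library. The exception was X63, at 1.75 CPM. Col15a1 (chr4:47208161-47313167, + strand), the multiplexin that ties basement membranes to collagen fibrils, rose in parenchyma from 1.93, 3.06 and 4.10 CPM to 15.996, 18.2 and 26.7 CPM (log2FC 2.62, SE 0.35, adjusted p = 1.11e-08), again without overlap. In airways it went from 4.03, 7.92 and 33.8 CPM to 16.3, 26.3 and 38.5 CPM (log2FC 1.15, SE 0.23, adjusted p = 3.26e-05), and there the groups overlapped.

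The type I and III chains, which make up most interstitial fibrils, rose in parenchyma. Col3a1 (chr1:45311538-45349706, + strand) went from 128.7, 183.6 and 218 CPM to 318, 388 and 529.9 CPM (log2FC 1.03, SE 0.16, adjusted p = 2.23e-07), and Col1a1 from 23.2, 33.2 and 44.2 CPM to 45.2, 77.9 and 133.6 CPM (log2FC 1.13, SE 0.22, adjusted p = 1.32e-05). Neither gene's groups overlapped in parenchyma. Col1a2 rose by a log2FC of 0.65 and Col5a2, a type V chain built into the same fibrils, by 0.48. In airways, where Col3a1 had 236, 386 and 982 CPM in PBS and 436, 571 and 721 CPM in HDM mice, the HDM range lay inside the PBS range (log2FC 0.47, SE 0.18, adjusted p = 0.015). That call and the one of Col1a1 (log2FC 0.50, SE 0.22, adjusted p = 0.041) were lost with edgeR (adjusted p = 0.096 and 0.15) and with DESeq2 (0.071 and 0.12). The Col1a1 call was also lost without X63 (0.060, in the fit without X32, X63 and X70). Col1a2 had a log2FC of 0.03 in airways, which did not pass. Of the 11 fibrillar chains, 6 rose and 1 (Col27a1) fell in parenchyma, and 4 rose and 2 (Col2a1 and Col11a1) fell in airways. DESeq2 did not call those 2 falls (adjusted p = 0.14 and 0.088).

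Most tested FACITs fell. Of 6, 4 were lower and 0 higher in each tissue, namely Col12a1, Col14a1, Col16a1 and Col20a1. Col12a1 (chr9:79598991-79718831, - strand), which bridges neighbouring fibrils, dropped in parenchyma from 37.4, 49.004 and 62.7 CPM to 5.72, 8.73 and 14.7 CPM (log2FC -2.52, SE 0.17, adjusted p = 2.98e-17). No HDM library reached the lowest PBS library, and the same held in airways, at 14.97, 26.9 and 32.7 CPM and 5.11, 6.88 and 12.1 CPM (log2FC -1.77, SE 0.18, adjusted p = 1.06e-11). Of the 4 transmembrane chains 3 fell in each tissue and the neuronal collagen Col25a1 did not pass. Col17a1, the hemidesmosomal collagen of basal epithelial cells, went from 3.31, 5.09 and 6.84 CPM to 0.584, 0.827 and 1.23 CPM in parenchyma (log2FC -2.59, SE 0.39, adjusted p = 1.15e-07), without overlap. Col13a1, an adhesion collagen of the cell surface, fell by 1.60 on the log2 scale in parenchyma and Col23a1 fell by 0.83. Among short-chain network chains Col8a1 and Col8a2, found beneath endothelium, were both lower in both tissues.

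The 6 type IV chains split the same way in both tissues. Col4a1 and Col4a2, which form the basement membrane network of nearly all tissues, rose in airways (log2FC 0.47 and 0.53) and in parenchyma (0.40 and 0.57). Col4a3, Col4a4 and Col4a5, the chains of alveolar and glomerular basement membranes, and Col4a6 fell. Col4a6, a chain of smooth muscle basement membranes, went from 1.22, 1.75 and 2.21 CPM to 0.178, 0.549 and 0.806 CPM in parenchyma (log2FC -1.90, SE 0.24, adjusted p = 1.39e-09). Col4a5 in parenchyma went from 101.4, 119.7 and 154.4 CPM to 37.3, 42.6 and 54.4 CPM (log2FC -1.65, SE 0.10, adjusted p = 9.40e-19), with no overlap. In airways Col4a3 was at 25.99, 89.2 and 132.7 CPM in PBS and 13.8, 56.9 and 94.2 CPM in HDM mice (log2FC -0.60, SE 0.26, adjusted p = 0.037). The groups overlapped, and that call was lost without X32, X63 and X70 (adjusted p = 0.15). Type VI also split. Col6a1 and Col6a2 rose in parenchyma by 0.50 and 0.76, while Col6a3 and Col6a4 fell by 1.00 and 1.70 on the log2 scale. Col6a5 rose in airways from 2.26, 4.05 and 10.1 CPM to 1.199, 21.3 and 46.9 CPM (log2FC 1.44, SE 0.50, adjusted p = 0.0091), with HDM libraries both below and above the PBS range.

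**Figure D2:**
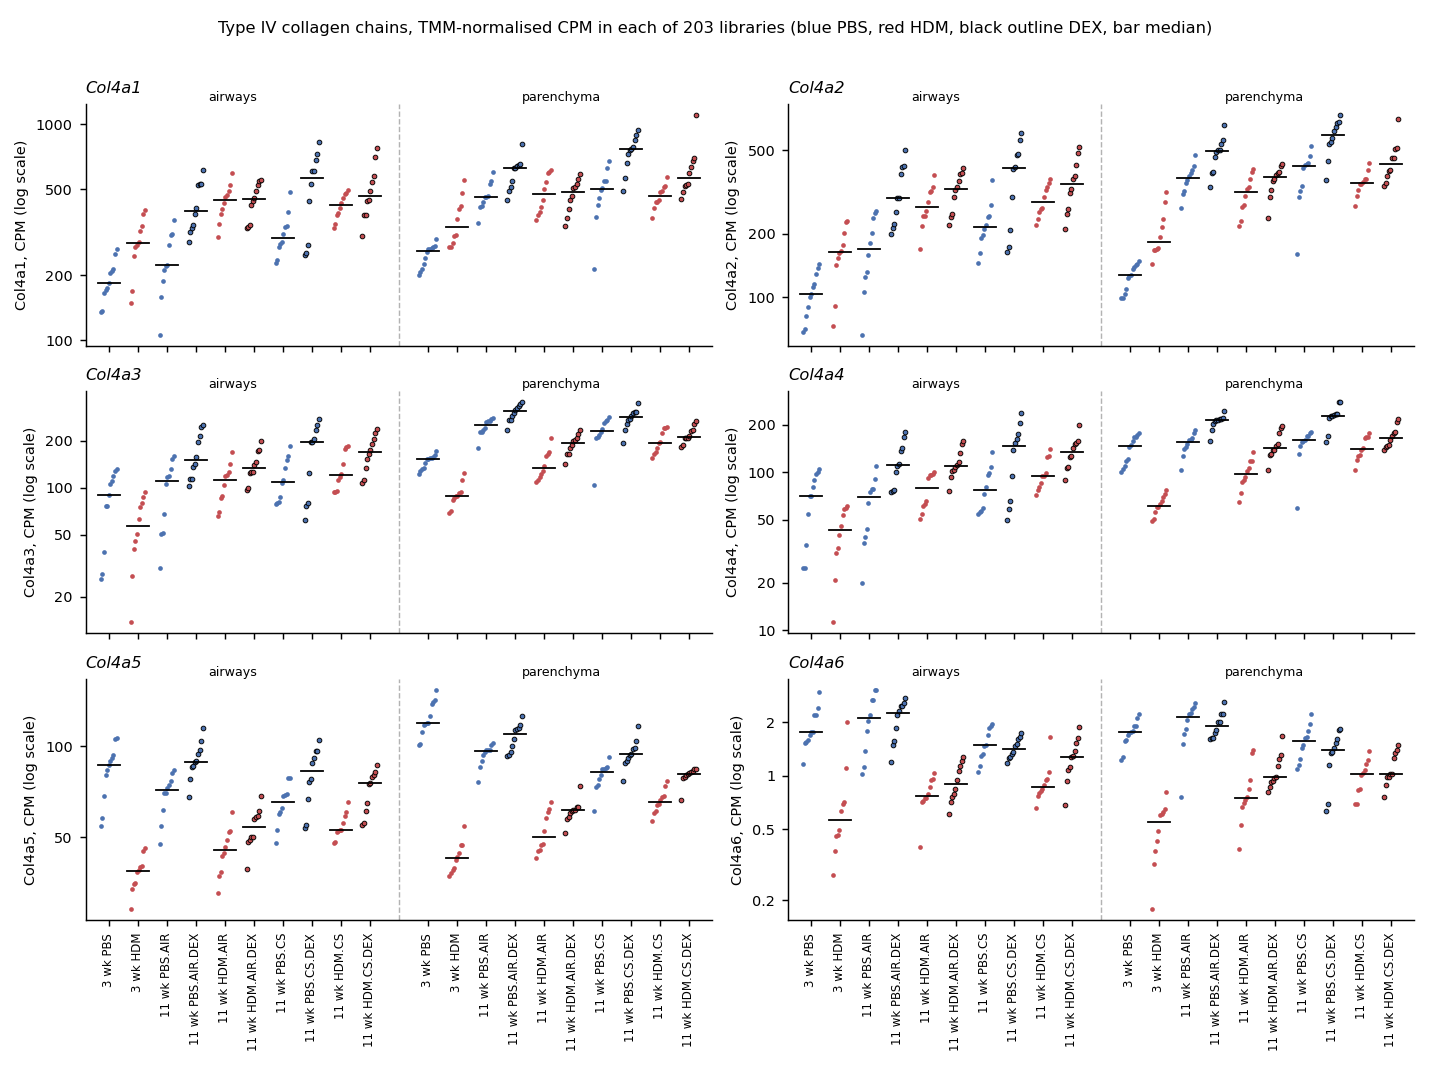
CPM (log scale, 1 panel per type IV chain) in each library, by group, with airways left and parenchyma right of the dashed line. Blue points are PBS and red points HDM groups, black outlines mark DEX and bars are medians. Col4a1 and Col4a2 share 1 pattern and Col4a3 and Col4a4 another, while Col4a5 was lower in every HDM library than in every PBS library of the parenchyma at 3 weeks.

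After 11 weeks of HDM in air the rises of Col24a1, Col15a1 and the type I and III chains were present in both tissues. In airways 26 of 43 tested collagen genes were called (10 higher, 16 lower), against 61.1% of all genes (31.3% higher and 29.8% lower). In parenchyma 21 of 43 were called (8 higher, 13 lower), against 59.5% (32.6% and 26.9%). Col24a1 had 0.496, 0.691 and 1.35 CPM in PBS.AIR airways and 8.74, 15.6 and 23.1 CPM in HDM.AIR airways (log2FC 4.35, SE 0.35, adjusted p = 5.27e-23). Parenchyma held 0.460, 0.715 and 1.48 CPM and 10.6, 22.6 and 37.8 CPM (log2FC 4.77, SE 0.36, adjusted p = 3.74e-25). The groups did not overlap in either tissue. Col3a1 rose without overlap in both tissues, from 199.5, 312 and 533 CPM to 537, 629 and 865 CPM in airways (log2FC 1.01, SE 0.19, adjusted p = 2.45e-06) and from 147.01, 189.5 and 280.4 CPM to 293, 541 and 643 CPM in parenchyma (log2FC 1.42, SE 0.19, adjusted p = 1.90e-11). Col1a1 in parenchyma went from 36.03, 46.996 and 65.5 CPM to 58.7, 104.03 and 188.1 CPM (log2FC 1.18, SE 0.17, adjusted p = 1.06e-09), where 8 of 10 HDM libraries lay above the PBS range. Col15a1 rose by 1.21 in airways and 1.61 in parenchyma.

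The HDM effect on Col4a1 to Col4a4 differed between tissues at this time. Col4a5 had a lower median in HDM.AIR than in PBS.AIR in both tissues, at 45.3 and 71.7 CPM in airways and 50.03 and 96.4 CPM in parenchyma. So did Col4a6, at 0.775 and 2.11 CPM in airways and 0.748 and 2.14 CPM in parenchyma. In airways Col4a1 went from 106.4, 222 and 361 CPM to 301, 445 and 595 CPM (log2FC 0.97, SE 0.16, adjusted p = 2.82e-08) and Col4a2 rose by 0.78, while in parenchyma their log2FC were 0.07 and -0.21 and did not pass. Col4a3 and Col4a4 fell by 0.77 and 0.59 in parenchyma. In airways Col4a3 was at 0.29 and did not pass, and the call of Col4a4 (0.42) was lost under 7 of the alternatives, edgeR and DESeq2 among them. Col12a1 in parenchyma went from 52.5, 63.6 and 83.1 CPM to 6.43, 13.9 and 26.4 CPM (log2FC -2.11, SE 0.17, adjusted p = 8.20e-23) and Col17a1 from 2.54, 3.51 and 5.30 CPM to 0.371, 0.823 and 1.45 CPM (log2FC -2.07, SE 0.32, adjusted p = 1.04e-08). Neither gene's groups overlapped. Col13a1 fell by 1.26 there, from 42.1, 57.2 and 60.01 CPM to 14.3, 22.3 and 35.7 CPM. The short-chain network chains were lower in airways for all 3 members, with Col10a1 at 0.314, 3.42 and 36.8 CPM in PBS.AIR and 0, 0.414 and 1.91 CPM in HDM.AIR airways (log2FC -3.53, SE 0.91, adjusted p = 3.63e-04). Col11a1 and Col2a1 had log2FC of -2.96 and -2.07 there. Cartilage markers moved with them: 10 of 11 tested fell in these airways and their sum was 89.05 to 183.3 CPM in PBS.AIR and 28.9 to 43.1 CPM in HDM.AIR, with Matn1 and Snorc at a median count of 0 in HDM.AIR. Their part in the falls of Col10a1, Col11a1 and Col2a1 was not tested.

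**Figure D3:**
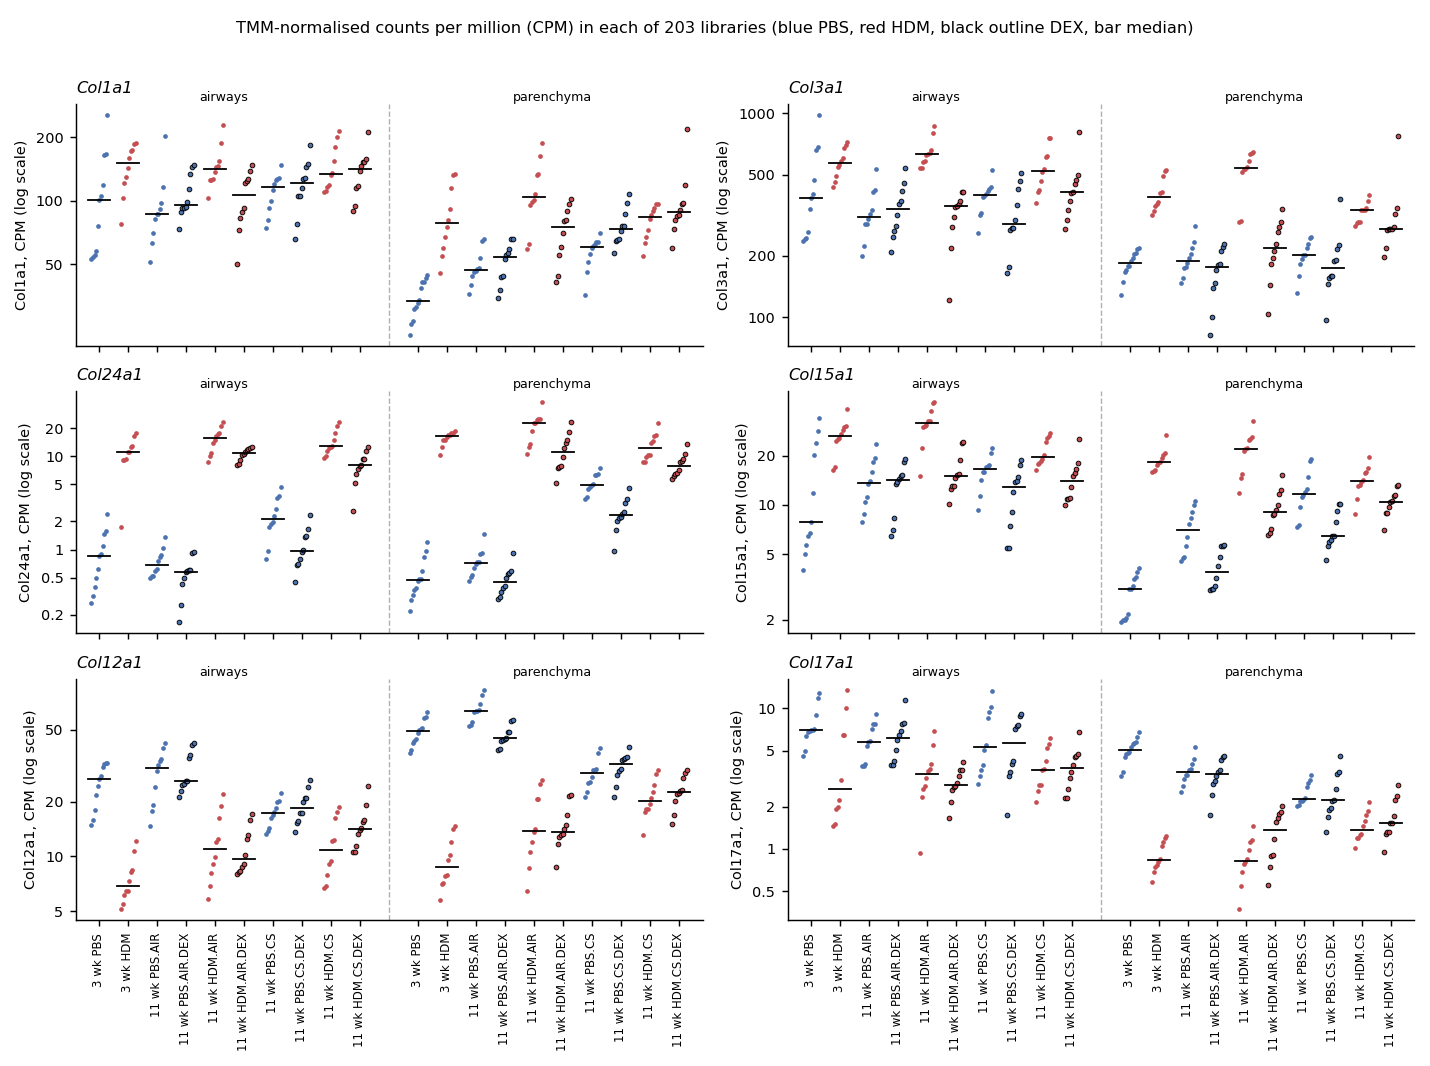
CPM (log scale) of 6 collagen genes in each library, by group, with airways left and parenchyma right of the dashed line. Blue points are PBS and red points HDM groups, black outlines mark DEX and bars are medians. Col24a1 in every HDM group without DEX has a median of at least 11.2 CPM, and the medians of its PBS.CS groups lie between those of PBS.AIR and HDM.AIR.

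Cell type markers moved with these changes, and in bulk RNA fewer cells of a type and less RNA per cell cannot be told apart. At 3 weeks 6 of 6 leukocyte markers rose in parenchyma and their sum was 359 to 505 CPM in PBS and 1221 to 2069 CPM in HDM mice. All 6 endothelial markers fell (1203 to 1756 CPM against 594 to 879.7 CPM), 6 of 7 alveolar type I markers fell (5021 to 6804 CPM against 2341 to 3042 CPM) and 9 of 10 fibroblast markers fell (982 to 1653 CPM against 674 to 904 CPM). In HDM.AIR parenchyma at 11 weeks 5 of 6 leukocyte, 6 of 6 endothelial, 6 of 7 alveolar type I and 6 of 10 fibroblast markers passed, the leukocyte ones upward and the others downward. In airways 6 of 6 leukocyte markers rose and 6 of 6 endothelial markers fell at both times, with 10 of 10 fibroblast markers lower at 3 weeks and 6 at 11 weeks. None of these markers had a median count of 0 in those groups. Of the 10 fibroblast markers, 0 rose in parenchyma at 3 weeks. The shares of all genes higher and lower in these HDM comparisons are those given above. The part of these cell type markers in the collagen changes was not tested.

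Fibrillar chains held a larger share of the collagen mRNA in HDM parenchyma, and type IV chains a smaller share. In parenchyma at 3 weeks the median fibrillar share of all collagen CPM was 25.7% in PBS (range 22.8 to 27.7%) and 40.4% in HDM mice (37.2 to 46.997%), while the type IV share was 47.1% (44.4 to 48.8%) and 37.3% (34.5 to 42.7%). At 11 weeks in air the fibrillar share of parenchyma was 21.2% (18.3 to 23.9%) and 41.4% (28.7 to 46.8%), and the type IV share 53.6% and 39.8%. Neither share overlapped between PBS and HDM parenchyma at either time. In airways the fibrillar share overlapped between exposures, with medians of 41.3% and 50.3% at 3 weeks and 37.5% and 46.8% at 11 weeks. In PBS.CS parenchyma the fibrillar share had a median of 21.2% and in HDM.CS parenchyma 29.9% (26.7 to 32.9%), and these did not overlap either. HDM.AIR.DEX parenchyma had 24.4% (16.5 to 29.5%), which met the HDM.AIR range only at its lower end. These shares are descriptions of summed members and carry no test.

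**Figure D4:**
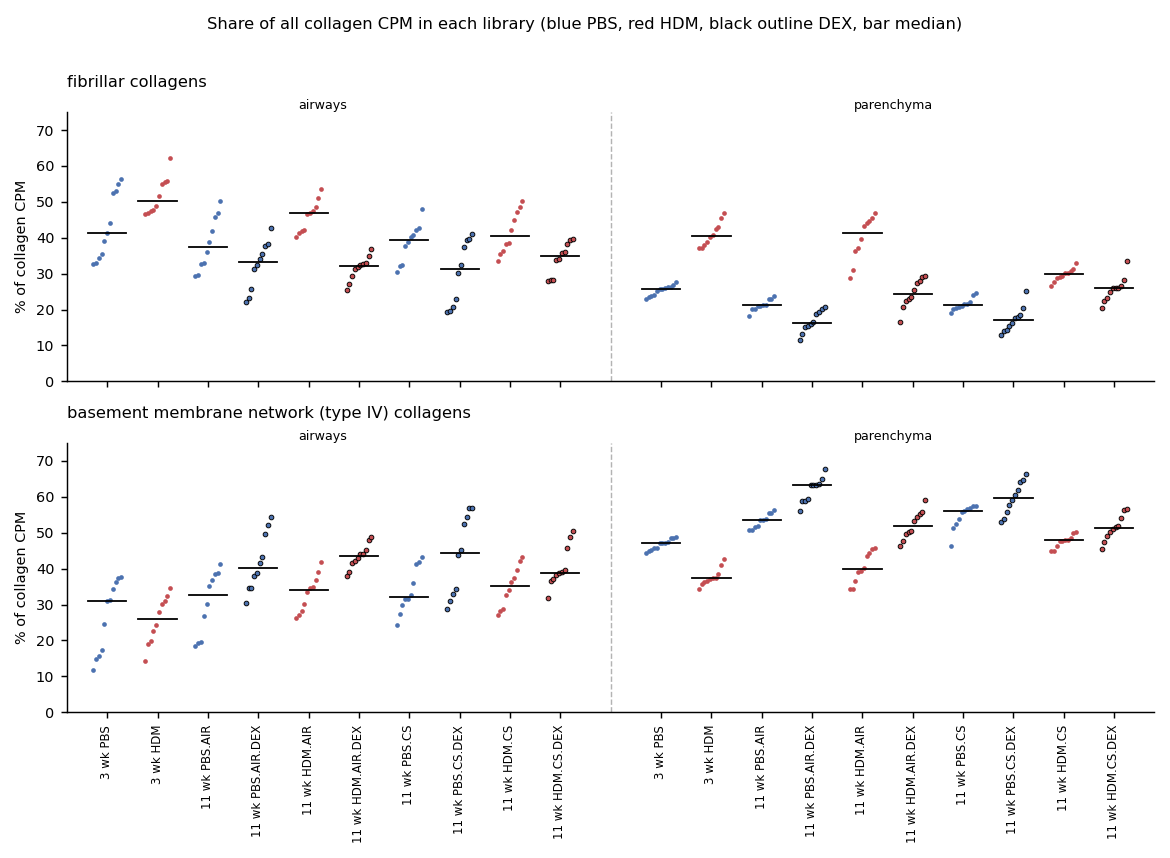
Share of all collagen CPM (percent) held by fibrillar chains (top) and type IV chains (bottom) in each library, by group, with airways left and parenchyma right of the dashed line. Blue is PBS, red is HDM, black outlines mark DEX and bars are medians. In parenchyma the fibrillar median was 41.4% in HDM.AIR, 24.4% in HDM.AIR.DEX and 21.2% in PBS.AIR.

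Chains that assemble into 1 molecule did not always move alike. The ratio of 2 partner chains, each per kilobase, was compared between HDM and PBS libraries for 7 pairs in both tissues at both times, by two-sided permutation tests with 100000 resamples adjusted over the 28 comparisons, and 24 passed. Most tested genes were called in these HDM comparisons, and ratios of unrelated genes were not tested. The count is therefore not shown to be particular to partner chains. In the type I molecule, which holds 2 kinds of chain, the Col1a1 to Col1a2 ratio rose in all 4 comparisons. In parenchyma at 3 weeks its median went from 0.592 to 0.858 (log2 difference 0.48, SE 0.08, permutation test adjusted p = 0.00012). The type V ratio of Col5a1 to Col5a2 fell in all 4, at most in airways at 11 weeks, from 0.405 to 0.249 (log2 difference -0.80, SE 0.09, permutation test adjusted p = 9.3e-05). The largest shift was in type VI, whose Col6a3 to Col6a1 ratio went from 0.339 to 0.115 in parenchyma at 3 weeks (log2 difference -1.50, SE 0.16, permutation test adjusted p = 9.3e-05). It was also lower in the other 3 comparisons, where it fell by 0.93, 0.51 and 0.72 on the log2 scale. For type IV the shifts turned with time. The Col4a1 to Col4a2 ratio in parenchyma differed by -0.17 at 3 weeks and 0.28 at 11 weeks, and the Col4a3 to Col4a4 ratio by 0.45 and -0.17. The Col6a1 to Col6a2 ratio turned there too, at -0.26 and 0.13, while the Col8a1 to Col8a2 ratio differed by -0.36 and -0.75.

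The HDM effect at 11 weeks was set against that at 3 weeks in a joint fit, in which the time points also differ in their own PBS groups and dosing. In airways 6 of 43 tested genes differed, against 28.4% of all genes, and in parenchyma 12, against 42.4%. In parenchyma the rise of Col15a1 was smaller at 11 weeks (difference -1.14), whereas the falls of Col14a1 (difference 1.05) and Col6a4 (1.47) did not pass at 11 weeks, when their log2FC were -0.24 and -0.11. The Col15a1 difference was lost when a CPM of 10 in 9 libraries was required (adjusted p = 0.062). In airways Col13a1 and Col4a4 fell at 3 weeks, and the difference between the times passed (differences 1.34 and 1.13). Between tissues, 5 collagen genes differed in their HDM effect at 3 weeks, against 17.3% of all genes, and 10 at 11 weeks, against 27.6%. At 3 weeks Col15a1 rose more and Col17a1 fell more in parenchyma (airway minus parenchyma -1.48 and 1.45), the former again lost at that CPM (0.061). For Col24a1 the differences were -1.19 and -0.43 and did not pass, and for Col3a1 -0.56 and -0.41. At 11 weeks 4 of 6 type IV chains had a higher HDM effect in airways, from 0.90 for Col4a1 to 1.05 for Col4a3.

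Cigarette smoke without HDM also raised Col24a1, and in both tissues every PBS.CS library lay below every HDM.AIR library. In PBS mice smoke called 6 of 43 collagen genes in airways (3 higher, 3 lower), against 13.7% of all genes (7.66% higher and 6.03% lower), and 7 in parenchyma (2 higher, 5 lower), against 35.9% (17.7% and 18.2%). Without X151, X160 and X173 the counts were 11 and 4, and in parenchyma Col4a5, Col8a1 and Col16a1 were no longer called. In parenchyma Col24a1 had 3.50, 4.96 and 7.55 CPM in PBS.CS, beside 0.715 CPM as the median of PBS.AIR (log2FC 2.81, SE 0.39, adjusted p = 8.30e-10), and no library overlapped between those groups. In airways it had 0.795, 2.13 and 4.64 CPM in PBS.CS and 0.496, 0.691 and 1.35 CPM in PBS.AIR (log2FC 1.55, SE 0.40, adjusted p = 0.0032), with 8 of 10 smoke libraries above the PBS.AIR range. Col12a1 in parenchyma fell to 21.3, 28.7 and 39.5 CPM, below every PBS.AIR library (log2FC -1.16, SE 0.15, adjusted p = 3.08e-10), and Col15a1 went from 4.57, 7.02 and 10.6 CPM to 7.35, 11.8 and 18.98 CPM (log2FC 0.79, SE 0.22, adjusted p = 0.0027). Col27a1 and Col16a1 fell by 0.55 and 0.37, the latter among the calls lost without X151, X160 and X173. In airways Col4a1 (0.47) and Col6a3 (0.34) were higher and Col6a5 (-1.09), Col12a1 (-0.68) and Col14a1 (-0.45) lower with smoke. Of these, the calls of Col4a1, Col6a3, Col14a1 and Col6a5 were lost under 4, 3, 2 and 1 alternatives. Col3a1 and Col1a1 had log2FC of 0.04 and 0.22 in smoke-exposed parenchyma, which did not pass. Of 6 leukocyte markers, 3 rose with smoke in PBS parenchyma, and their sum was 297 to 448 CPM in PBS.AIR and 465 to 672 CPM in PBS.CS. Their part in the rise of Col24a1 was not tested.

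In HDM mice, smoke lowered Col24a1, Col15a1 and the type I and III chains in parenchyma. There 12 of 43 were called (7 higher, 5 lower), against 24.1% of all genes (10% higher and 14.1% lower), and in airways 7 (5 and 2), against 16.2% (6.07% and 10.1%). In HDM.CS parenchyma Col3a1 had 279, 335 and 398 CPM, beside 293, 541 and 643 CPM in HDM.AIR (log2FC -0.65, SE 0.19, adjusted p = 0.0062). Col24a1 was at 8.56, 12.1 and 22.8 CPM (log2FC -0.65, SE 0.17, adjusted p = 0.0017) and Col15a1 at 8.82, 14.1 and 19.5 CPM (log2FC -0.58, SE 0.18, adjusted p = 0.0082). Each gene's ranges overlapped with HDM.AIR, and 4 of 11 fibrillar chains were lower and 0 higher. The Col1a1 call (-0.47) was lost under 3 alternatives. Col8a1 was higher with smoke in both tissues of HDM mice, at 6.14, 9.08 and 13.1 CPM in HDM.AIR and 11.4, 15.6 and 19.2 CPM in HDM.CS parenchyma (log2FC 0.72, SE 0.14, adjusted p = 3.27e-05). Col13a1, Col23a1, Col6a3 and Col4a5 were also higher in both tissues. In airways Col26a1 (-0.81, lost under 4 alternatives) and Col15a1 (-0.56) were lower. In these HDM parenchyma groups 6 of 6 endothelial and 5 of 7 alveolar type I markers were higher with smoke, and 3 of 6 leukocyte markers lower. Their summed levels were 647 to 1714 CPM and 1357 to 2184 CPM for endothelial, 2552 to 4221 CPM and 4354 to 5097 CPM for alveolar type I and 860.0 to 1333 CPM and 681 to 956 CPM for leukocyte markers, HDM.AIR first. Their part was not tested.

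**Figure D5:**
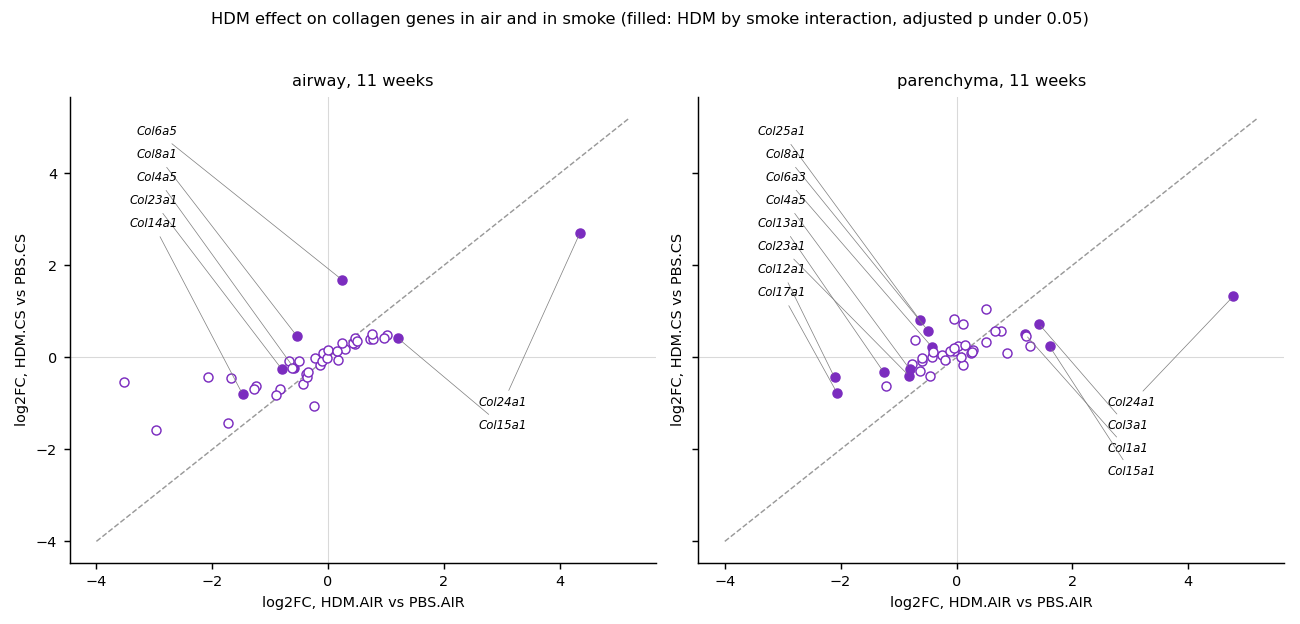
log2FC of each tested collagen gene for HDM against PBS in air (x axis) and in smoke (y axis), in airways (left) and parenchyma (right) at 11 weeks. The dashed line marks equal effects, and filled, named points had an adjusted p below 0.05 for the HDM by smoke interaction. In parenchyma all 12 filled points lie nearer to 0 in smoke or on its other side, with Col24a1 at 4.77 in air and 1.32 in smoke.

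Within smoke-exposed mice HDM called 19 of 43 collagen genes in airways, against 33.1% of all genes, and 8 in parenchyma, against 9.94% (7.52% higher and 2.42% lower). In airways Col24a1 (2.71), Col6a5 (1.68) and Col5a2 (0.51) had the largest rises and Col11a1 (-1.57), Col19a1 (-1.43) and Col28a1 (-0.82) the largest falls, and each of those falls was lost under at least 1 alternative. In parenchyma only Col4a6 (-0.62) and Col23a1 (-0.40) were lower. In parenchyma 5 of 11 fibrillar chains rose and 0 fell, among them Col24a1 (3.50, 4.96 and 7.55 CPM in PBS.CS and 8.56, 12.1 and 22.8 CPM in HDM.CS, log2FC 1.32, SE 0.22, adjusted p = 9.04e-07) and Col3a1 (log2FC 0.73, SE 0.18, adjusted p = 0.0022). For both genes the lowest HDM.CS library was above the highest PBS.CS library. The call of Col1a1 (0.50) was lost under 5 alternatives, among them the fit without X151, X160 and X173 (adjusted p = 0.098). The HDM by smoke interaction, which tests whether the HDM effect differed between smoke and air, passed for 12 of 43 genes in parenchyma, against 36% of all genes, and for 7 in airways, against 19.1%. In parenchyma it was -3.45 for Col24a1, -1.37 for Col15a1, -0.69 for Col3a1 and -0.68 for Col1a1. It was positive for Col12a1 (1.67) and for all 4 transmembrane chains, from 0.41 for Col23a1 to 1.45 for Col25a1. The Col25a1 call was lost with edgeR, with DESeq2 and without X32, X63 and X70 (adjusted p = 0.12, 0.11 and 0.052). In airways it was -1.64 for Col24a1 and -0.79 for Col15a1, and the Col24a1 call was lost when a CPM of 10 in 9 libraries was required (adjusted p = 0.074).

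DEX in the last week lowered Col1a1, Col1a2, Col3a1, Col15a1 and Col24a1, all higher with HDM, in both tissues of HDM.AIR mice. In HDM.AIR mice it called 12 of 43 collagen genes in airways (5 higher, 7 lower), against 28.6% of all genes (12.5% higher and 16% lower), and 11 in parenchyma (4 and 7), against 28.5% (12.2% and 16.2%). Fibrillar chains were lower for 4 of 11 in airways and 5 of 11 in parenchyma, and 0 were higher. Col3a1 in parenchyma went from 293, 541 and 643 CPM in HDM.AIR to 103.8, 219 and 339 CPM in HDM.AIR.DEX (log2FC -1.25, SE 0.19, adjusted p = 1.66e-08). In airways it went from 537, 629 and 865 CPM to 121.4, 349.8 and 413 CPM (log2FC -1.08, SE 0.19, adjusted p = 2.41e-06), and every DEX library lay below every HDM.AIR library. Col1a2 had log2FC of -0.76 in airways and -0.93 in parenchyma. Col1a1 had -0.54 and -0.65, and its airway call was lost without X151, X160 and X173 (adjusted p = 0.053). Col15a1 in parenchyma went from 11.9, 22.1 and 32.7 CPM to 6.57, 9.06 and 15.3 CPM (log2FC -1.19, SE 0.20, adjusted p = 3.88e-07). Col24a1 was at 5.10, 11.1 and 23.4 CPM in HDM.AIR.DEX parenchyma (log2FC -0.92, SE 0.18, adjusted p = 1.06e-05), and its lowest library there was above the highest PBS.AIR library. In airways its call (-0.50) was lost with edgeR and DESeq2 (adjusted p = 0.051 and 0.055). Col9a1, a cartilage FACIT, had the largest fall called there, from 0.0345, 0.204 and 0.416 CPM to 0, 0.0316 and 0.181 CPM (log2FC -1.83, SE 0.60, adjusted p = 0.014), with at most 3 counts in 8 of 10 DEX libraries, and was not called by edgeR and DESeq2 (adjusted p = 0.057 and 0.12).

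Type IV chains rose with DEX in several groups, as did chains of other classes. In PBS.AIR airways 5 of 6 type IV chains were higher and 0 lower. There 13 collagen genes were called (11 higher, 2 lower), against 14.9% of all genes (8.03% higher). The other rises there were Col5a3 (1.13, the largest), Col13a1 (0.88), Col5a1 (0.60), Col5a2 (0.54), Col6a1 (0.44) and Col6a3 (0.34). Col4a1 went from 106.4, 222 and 361 CPM to 285, 397 and 617 CPM (log2FC 0.91, SE 0.16, adjusted p = 5.30e-06), and the ranges overlapped. In PBS.CS mice 4 of 6 type IV chains rose in airways and 4 of 6 in parenchyma, among 8 and 11 collagen genes called, against 11.3% and 16.9% (4.68% and 7.39% higher). In airways the 4 calls were lost when only those groups were fitted, and in parenchyma those of Col4a4 and Col4a5 were lost without X151, X160 and X173. In PBS.CS.DEX parenchyma Col4a1 had 489, 765 and 940.3 CPM, beside 214, 501 and 674 CPM in PBS.CS (log2FC 0.66, SE 0.17, adjusted p = 0.0024). Of the 9 rises and 2 falls in that comparison, the largest rises were those of Col6a2 and Col6a1 (0.73 each). In PBS.AIR parenchyma DEX called 5 collagen genes, all lower, against 22.6% of all genes (12% lower). That direction depended on the fit, since 7 were higher and 10 lower when only those groups were fitted, and 7 higher and 11 lower with quality weights. Without X151, X160 and X173, 8 were called, all lower. Col15a1 (-0.74) and Col1a2 (-0.63) had the largest falls. In HDM.CS mice it called 6 in airways and 3 in parenchyma, against 9.3% and 7.86%. Without X151, X160 and X173 only Col24a1 was called in HDM.CS parenchyma. Alveolar type II markers, of which 5 of 6 rose with DEX in PBS.AIR airways and in PBS.CS parenchyma, summed to 6827 to 22616 CPM in PBS.AIR and 11470.2 to 28136 CPM in PBS.AIR.DEX airways. Their part in the rise of type IV chains was not tested.

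The DEX effect was compared between HDM.AIR and PBS.AIR mice by an interaction term. It passed for 7 of 43 collagen genes in airways, against 4.62% of all genes, and for 5 in parenchyma, against 12.4%. Col3a1 had -1.17 in airways and -0.98 in parenchyma, that is, its log2FC with DEX was lower in HDM than in PBS mice, where it was 0.09 and -0.27. Col5a2 had -0.82 and -0.59. In airways DEX raised Col5a2 in PBS.AIR mice (0.54, adjusted p = 2.05e-04), and its fall in HDM.AIR mice (-0.28) did not pass (adjusted p = 0.051). Col8a1, higher with DEX in HDM.AIR mice, had 0.60 and 0.72, the first lost with edgeR (adjusted p = 0.055). For Col24a1 the terms were -0.01 and -0.29 and did not pass. In HDM.AIR parenchyma 4 of 6 leukocyte markers were lower with DEX (860.0 to 1333 CPM in HDM.AIR and 641 to 1125 CPM in HDM.AIR.DEX), 4 of 7 alveolar type I markers were higher and 2 of 10 fibroblast markers lower, led by Lum. Their part in the fall of Col3a1 was not tested.

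The enzymes that modify, fold and process collagen chains moved in both directions with HDM, as genes in general did. The all-gene shares are given above for the same comparisons, and the counts below are not shown to be particular to these lists. Of the 15 hydroxylases, glycosyltransferases and their partners, 6 rose and 7 fell in airways at 3 weeks, 7 and 6 in parenchyma at 3 weeks, 7 and 6 in airways at 11 weeks and 6 and 6 in parenchyma at 11 weeks. P4ha3, a prolyl 4-hydroxylase subunit, had the largest rise in parenchyma at 11 weeks (log2FC 1.78) and Colgalt2, which adds galactose to hydroxylysine, the largest fall (-1.93). Of 8 chaperone and secretion genes, 2 rose and 2 fell in airways at 3 weeks, 4 and 1 in parenchyma at 3 weeks, 3 and 1 in airways at 11 weeks and 4 and 0 in parenchyma at 11 weeks, led by Creb3l1, a transcription factor of collagen-secreting cells (1.15 in parenchyma at 11 weeks). Of 7 tested propeptide processing genes, 0 rose and 4 fell in airways at 3 weeks, 0 and 5 in parenchyma at 3 weeks, 1 and 4 in airways at 11 weeks and 2 and 5 in parenchyma at 11 weeks. Pcolce2, an enhancer of C-propeptide cleavage, had the largest fall in all 4 comparisons, at -3.15 in airways at 3 weeks and -1.96 in parenchyma at 11 weeks. Of the 5 crosslinking genes, 1 rose and 1 fell in airways at 3 weeks, 3 and 1 in parenchyma at 3 weeks, 1 and 1 in airways at 11 weeks and 1 and 0 in parenchyma at 11 weeks, and Lox, lysyl oxidase, had log2FC of 0.51 and 0.88 in airways at 3 and 11 weeks. Of the collagen receptors, 9 tested at 3 and 10 at 11 weeks, 2 rose and 4 fell in airways at 3 weeks, 3 and 4 in parenchyma at 3 weeks, 3 and 4 in airways at 11 weeks and 2 and 5 in parenchyma at 11 weeks. Lair1, an inhibitory receptor of leukocytes, rose most (1.81 in parenchyma at 11 weeks), and Itga11, an integrin of fibroblasts, had the largest fall in airways at 3 weeks (-1.39).

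The members with the lowest levels complete the account. Col9a1, Col19a1 and Col22a1, all FACITs, were not tested at 3 weeks, and Col22a1 at neither time, because too few libraries passed the filter. Col22a1, the collagen of muscle and tendon junctions, averaged 0.121 CPM. In library X70, the HDM.AIR parenchyma library with skeletal muscle markers, it was at 5.53 CPM, against 0.0351 to 0.181 in the rest of that group. Col9a2 and Col9a3, partners of Col9a1 on cartilage fibrils, averaged 0.473 and 0.997 CPM. Col9a2 was lower with HDM in airways at 11 weeks (-1.68), and Col9a1, tested at 11 weeks, was not called for HDM in air in either tissue. Col19a1 had 0.0583, 0.187 and 0.484 CPM in PBS.AIR airways and 0, 0.0373 and 0.103 CPM in HDM.AIR airways, and all but 1 of the parenchyma libraries held at most 3 counts of it. Col6a6 was higher in airways than in parenchyma (2.34 at 11 weeks). Col26a1 and Col28a1 were higher in airways at both times. Col18a1, the source of endostatin, rose at 3 weeks in airways (0.34) and parenchyma (0.53) but did not pass at 11 weeks (0.17 and 0.11). Col5a1, Col11a2, Col25a1 and Col9a3, each tested in all 4 HDM comparisons in air, passed in none of them, and Col5a3 passed in parenchyma at 3 weeks (0.45), a call lost when libraries of both times were fitted together (adjusted p = 0.077).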

How the data were processed

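Per the study's methods and the labels, the authors sequenced total RNA of mouse airways and parenchyma as single reads, aligned them to mm10 with STAR 2.5.1b and quantified genes with RSEM 1.2.31 and kallisto 0.44.0, after bcl2fastq 2.20.0.422. Which quantifier made the table, and the strand setting, are not given in the sources used here. The authors deposited these values as estimated counts for 43346 gene identifiers in 203 libraries, 101 of airways and 102 of parenchyma. They are not scaled for depth or gene length, and 20.3% of the non-zero values are not whole, so they were rounded to whole numbers. Totals were 13003154 to 40240733 counts per library, and collagen genes with a mean under 1 CPM rest on few counts.

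Groups were taken from the labels. Libraries of the 3-week and of the 11-week experiment were fitted separately with limma-voom (R 4.3.3, limma 3.58.1), TMM factors (edgeR 4.0.16) and 1 mean per group, after a filter that kept genes with the CPM equivalent of 10 counts in at least 9 libraries. The differences between times were fitted on all 203 libraries. Adjusted p-values are Benjamini-Hochberg values over all genes tested, and calls needed an adjusted p below 0.05. Levels are TMM-normalised CPM over all 203 libraries, and levels of different genes were compared per kilobase of exon or, where stated, of coding sequence. Ranks in CPM and shares of summed CPM are not scaled for length. Chain ratios were tested by permutation (limma is not involved). Scripts were tested on simulated data. Figures were drawn with matplotlib 3.10.9 (Python 3.11.15, numpy 2.4.6, pandas 2.3.3, scipy 1.17.1).

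Positions of genes are from the M21 gene models on mm10. Of the identifiers, 98.0% matched those models without their version suffix and 53.3% with it. Upstream sequences are from RefSeq on GRCm38.p6. Alternatives changed the test (DESeq2 1.42.0, or quasi-likelihood in edgeR), the scaling (DESeq2 size factors), the weights (voom quality weights), the filter (none, or 10 CPM or more in 9 libraries) or the libraries fitted (only the groups of a comparison, or all 203). The omissions of X32, X63 and X70 and of X151, X160 and X173 were chosen after seeing the data.

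The collagen genes, the classes and the lists of machinery, receptor and marker genes were chosen with earlier results of these data known. Named members are those with the 2 highest levels per kilobase in each class and those with the 3 largest rises and falls among the genes called in each HDM or smoke comparison. Chains described beside them, and members in DEX comparisons, were chosen after their values were seen. Machinery, receptor and marker genes are named where they are the largest rise or fall of their list or had a median count of 0. The labels do not say that libraries came from separate mice, so p-values measure the spread between libraries.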

Additional observations from a re-analysis of the deposited data

Results flagged for a closer look

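Libraries of the 18 groups of 10 were screened for a highest or lowest value far from the other 9, by Dixon's test, in 11 measures each, which gave 20 flags, where chance gives about 1 in 20 tests. HDM.CS.DEX parenchyma library X160 was the highest of its group for Col1a1 (219 CPM), Col3a1 (776 CPM), Col4a1 (1105 CPM), Col8a1 (29.4 CPM) and the collagen share of counts (0.480%). PBS.CS parenchyma library X173 was the lowest of its group for Col4a1 (214.0 CPM), Col4a3 (103.6 CPM), Col6a3 (33.3 CPM), Col8a1 (5.99 CPM) and the collagen share (0.115%).

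In HDM.AIR.DEX airways X151 was lowest for Col3a1 (121.4 CPM) and Col6a3 (32.1 CPM). In PBS.AIR parenchyma X6 was lowest for Col4a3 (178.98 CPM) and Col8a1 (7.62 CPM). In 3-week HDM airways X63 was lowest for Col24a1 (1.75 CPM) and X123 highest for Col6a3 (77.03 CPM). Single flags were X24 in 3-week HDM parenchyma, highest for Col15a1 (26.7 CPM), X152 in HDM.AIR.DEX parenchyma, lowest for Col6a3 (31.4 CPM), X96 in PBS.CS.DEX parenchyma, highest for Col6a3 (96.3 CPM), and X108 in PBS.AIR.DEX parenchyma, lowest for Col8a1 (5.39 CPM).

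Effects that differed between groups were taken from the interaction terms of the limma-voom fits, and 40 differences of log2FC, each for a named member in 1 comparison, are listed. The HDM effect in smoke minus that in air was in airways -1.64 for Col24a1, -0.79 for Col15a1, 1.43 for Col6a5, 1.00 for Col8a1 and 0.67 for Col14a1. In parenchyma it was -3.45 for Col24a1, -1.37 for Col15a1, -0.69 for Col3a1, 1.67 for Col12a1, 1.45 for Col25a1 and 1.30 for Col17a1. The DEX effect in HDM minus that in PBS mice in air was in airways -1.17 for Col3a1, -0.90 for Col4a1, -0.86 for Col15a1 and 0.60 for Col8a1. In parenchyma it was -0.98 for Col3a1, -0.72 for Col1a1, -0.59 for Col5a2, 0.72 for Col8a1 and 0.57 for Col23a1.

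The HDM effect at 11 minus that at 3 weeks was in airways -1.27 for Col6a5, 1.34 for Col13a1, 1.13 for Col4a4 and 0.83 for Col4a3. In parenchyma it was -1.14 for Col15a1, -0.90 for Col4a2, -0.73 for Col6a2, 1.63 for Col26a1, 1.47 for Col6a4 and 1.05 for Col14a1. The HDM effect in airways minus that in parenchyma at 3 weeks was -1.48 for Col15a1, 1.45 for Col17a1, 0.76 for Col6a4 and 0.74 for Col12a1. At 11 weeks in air it was -1.70 for Col26a1, -1.23 for Col14a1, -0.87 for Col8a2, 1.24 for Col17a1, 1.05 for Col4a3 and 1.04 for Col13a1.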

How the results depend on the processing

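Of the 349 changes of collagen genes called across the comparisons, 256 kept their direction and stayed called under every alternative that gave a value, 93 lost the call under at least 1, and none changed sign. Counts of called genes within 1.5 times the reported count are not repeated here. The cause of the shifts below was not tested, except that a CPM of at least 10 leaves fewer genes to test. With that CPM the HDM airway count was 17 at 11 weeks in air and 11 in smoke, that of airway against parenchyma 14 at 11 weeks, and that of the tissue difference of the HDM effect at 3 weeks 3.

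With edgeR and with DESeq2 the count was 11 and 11 for smoke in PBS parenchyma, 9 and 10 for DEX in PBS.AIR parenchyma, 5 and 5 for DEX in HDM.CS parenchyma, and 10 and 10 for the tissue difference at 3 weeks. edgeR alone gave 4 for smoke in HDM airways and 4 for the DEX by HDM interaction in airways. With no filter the counts were 4 for smoke in HDM airways, 4 for the DEX by HDM interaction in airways, 4 for smoke in PBS parenchyma and 3 for the tissue difference at 3 weeks. Fitting the libraries of both times together gave 4 for the DEX by HDM interaction in airways.

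Fitting only the groups of a comparison gave 2 for DEX in PBS.CS airways, 4 for the DEX by HDM interaction in airways, 3 for the difference between times in airways, 13 for smoke in PBS parenchyma, and 17 (7 higher) and 8 for DEX in PBS.AIR and HDM.CS parenchyma. Quality weights gave 14 and 11 for DEX in PBS.CS and HDM.CS airways, 15 for smoke in PBS parenchyma, 13 for HDM in smoke-exposed parenchyma, and 18 (7 higher) and 7 for DEX in PBS.AIR and HDM.CS parenchyma. Without X151, X160 and X173 the counts were 11 and 4 for smoke in PBS airways and parenchyma, and 8 and 1 for DEX in PBS.AIR and HDM.CS parenchyma. No paired analysis was possible because the labels give every library a separate code and no replicate number. Depth limits the cartilage collagens Col2a1, Col9a2, Col10a1 and Col11a1 in parenchyma and Col9a1, Col19a1 and Col22a1, most of whose parenchyma libraries held at most 3 counts.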
